A study of Saccharomyces cerevisiae with 12 samples.

Results

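The comparison described here set 3 cultures of *Saccharomyces cerevisiae* grown with 4 µg/mL of the antifungal protein PeAfpA against 3 cultures grown with 2 µg/mL, so that it shows what the last doubling of the dose changed, with no untreated library in the contrast. PeAfpA is a small, cationic, cysteine-rich protein secreted by the blue mould *Penicillium expansum*. All cultures were the haploid laboratory strain BY4741 (mating type a) in 5% YPD medium, with the protein present from the start. They were shaken for 20 h at 30 °C. They differed by label only in dose. The 6 libraries (4A, 4B and 4C at 4 µg/mL; 3A, 3B and 3C at 2 µg/mL) belong to a set of 12, of which the other 6 hold 1 µg/mL PeAfpA and no protein. Of the 6600 features in the table of read counts, 5877 reached a mean of 1 TPM (a level corrected for the length of the gene) over the 6 libraries and were tested, or 1 CPM (a gene's share of the library's counts) where no length was known.

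When glucose is at hand, budding yeast ferments it and keeps the genes for other carbon sources repressed; once glucose is used up, it makes acetyl-CoA from ethanol and acetate and rebuilds sugars through the glyoxylate cycle and gluconeogenesis. In a like way, genes for the uptake and breakdown of poor nitrogen sources are held down by good ones and switched on by GATA-binding factors. The cell wall, a mesh of glucans, a little chitin and mannoproteins, is cut open and rebuilt at each round of budding, and the cell wall integrity (CWI) pathway signals damage to it from the cell surface.

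The libraries held 8706634 to 10045702 counts at 4 µg/mL, against 7153797 to 10270183 counts at 2 µg/mL. The labels were checked against the strain: *LEU2*, *URA3* and *MET17*, which BY4741 lacks, had 0 counts in all 6 libraries. The fourth auxotrophic marker, *HIS3*, which is only partly deleted in this strain, had 47.6, 52.6 and 52.5 CPM in 4A, 4B and 4C, against 72.2, 72.5 and 47.2 CPM in 3A, 3B and 3C, and thus does not check the strain. The 10 most abundant genes took 7.91, 8.62 and 10.3% of the counts in 4A, 4B and 4C, against 7.22, 6.11 and 7.15% in 3A, 3B and 3C. The labels name the source material as mycelia, although the strain grows as single budding cells. Values are relative to the library, so that fewer cells of a kind and less RNA per cell cannot be told apart.

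The dose separated the libraries along the first principal component of log2 CPM, which held 74.6% of the variance. Its scores were 17.1, 27.5 and 53.1 for 4A, 4B and 4C, against −29.5, −34.3 and −33.9 for 3A, 3B and 3C. Library 4C lay farthest out. On the second component (12.7%) 4A, 4B and 4C were at 16.8, 8.25 and −15.2, against −10.6, −15.6 and 16.3 for 3A, 3B and 3C, so that 4C and 3C each stood apart from the other libraries of their dose. In log2 CPM distance, 4A and 4B were 23.1 apart, while 4C was 53.8 from 4A and 42.7 from 4B. At 2 µg/mL, 3A and 3B were 24.6 apart and 3C was 39.1 and 40.7 from them. Distances between the doses ran from 56.4 (4A to 3A) to 92.7 (4C to 3C), so every pair of libraries across the doses was farther apart than any pair within one, and the closest such pair exceeded 4A to 4C by little. Because 4C and 3C stood apart from their groups, counts of genes are also given without both.

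**Figure D1:**
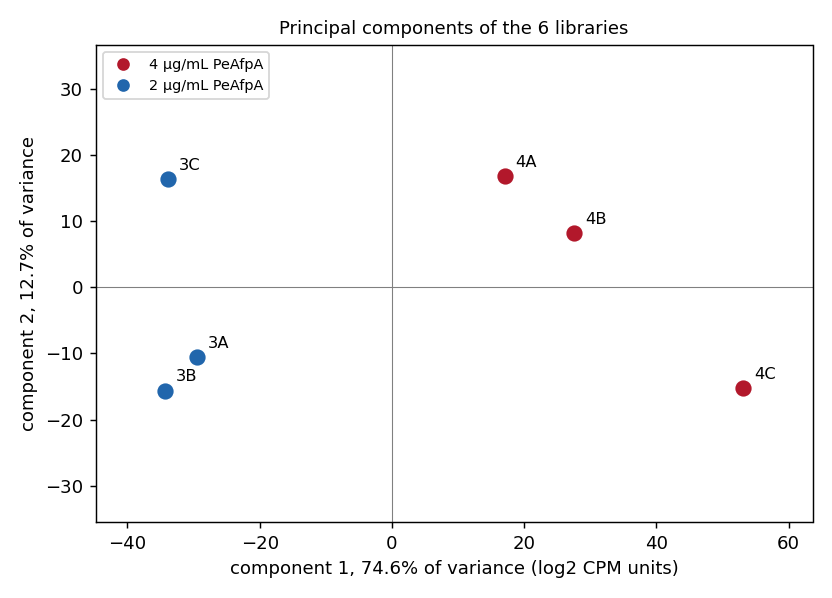
First and second principal components (log2 CPM units; 74.6 and 12.7% of the variance) of the 6 libraries, each a point, red for 4 µg/mL and blue for 2 µg/mL PeAfpA. The 4 µg/mL libraries all lie at positive scores of component 1, with 4C at 53.1, and the 2 µg/mL libraries all lie between −34.3 and −29.5.

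The last doubling changed 1831 of the 5877 genes at an adjusted p under 0.05 (31.2%; edgeR's quasi-likelihood test with Benjamini-Hochberg adjustment). Of these differentially expressed genes (DEGs), 837 were higher at 4 µg/mL (14.2% of the genes tested) and 994 were lower (16.9%). Counts on the gene lists are to be read against these 2 shares. A change of at least 2-fold was found for 807 DEGs (13.7%), 351 higher and 456 lower. The falls reached farther than the rises: 49 DEGs fell by at least 3 on the log2 scale and 15 rose by as much, and 22 against 5 changed by at least 4. The median absolute log2 fold change of the DEGs was 0.93, and the median over all genes tested was −0.01. The 3 libraries of one dose lay wholly above or below those of the other for 3117 genes (53%), of which 1466 were higher at 4 µg/mL (24.9%) and 1651 lower (28.1%), and 1823 of the 1831 DEGs were among them.

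How many genes passed rested on 3 libraries in particular. Without 4B there were 1016 DEGs (455 higher and 561 lower), without 3A 926 (374 and 552) and without 3B 829 (301 and 528), while leaving out 4A, 4C or 3C gave 1947, 1564 and 1695. With both 4C and 3C left out, 2648 genes passed, 1271 higher and 1377 lower. Scaled by library size alone in place of TMM (trimmed mean of M-values), the median change over all genes shifted by −0.13 and the higher share of the DEGs was 37.5%, against 45.7%. Among the genes called both in the 6 libraries and in any of these fits, none changed direction. This was largely fixed beforehand, because the doses did not overlap for almost all DEGs. Of 438 genes picked by the rule for named genes, 255 were called, and 40 of these had a log2 fold change more than 1.5 times smaller without both 4C and 3C. A call said to hold in every fit held without any 1 of the 6 libraries.

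The 12 largest rises and falls were taken among DEGs whose doses did not overlap and whose mean was at least 50 counts. Among these rises were 3 hexose transporter genes. *HXT4* (YHR092C), a high-affinity glucose transporter of the plasma membrane, had 1631, 2091 and 1030.0 CPM at 4 µg/mL, against 129, 71.0 and 59.7 CPM at 2 µg/mL. The groups lay far apart, and the gene rose 18.3-fold (log2 fold change 4.19 (SE 0.42, adjusted p = 0.0013)). *HXT2* (YMR011W), another glucose transporter, had 149, 356 and 1389 CPM in libraries 4A, 4B and 4C, against 39.7, 20.1 and 44.1 CPM in 3A, 3B and 3C. Here 4C was well above 4A and 4B (log2 fold change 4.18 (SE 0.78, adjusted p = 0.0071)), and in the related *HXT3*, with 147, 292 and 373 CPM at 4 µg/mL, against 24.8, 14.3 and 21.0 CPM at 2 µg/mL, the spread was smaller (log2 fold change 3.75 (SE 0.37, adjusted p = 0.0013)).

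*NFG1* (YLR042C), a negative regulator of the filamentous growth pathway, had the largest of the 12 rises. It had 45.7, 55.1 and 252 CPM in libraries 4A, 4B and 4C, against 5.34, 3.49 and 4.76 CPM in 3A, 3B and 3C. Library 4C was again the highest by far, although 4A and 4B also lay above every 2 µg/mL library (log2 fold change 4.68 (SE 0.71, adjusted p = 0.0036)). *MCH5*, the plasma membrane transporter for riboflavin, had 115, 141 and 546 CPM at 4 µg/mL, against 32.6, 22.6 and 23.9 CPM at 2 µg/mL (log2 fold change 3.34 (SE 0.58, adjusted p = 0.0057)). *DAK2*, a dihydroxyacetone kinase, had 31.4, 43.3 and 14.1 CPM at 4 µg/mL, against 4.56, 2.71 and 1.71 CPM at 2 µg/mL, with 4C the lowest of its dose (log2 fold change 3.31 (SE 0.49, adjusted p = 0.0035)). The other genes among the 12 largest rises were *NCW2* and *INA1*, described with the cell surface, *MNC1* (log2 fold change 2.94), and *YER138W-A* (4.31), *YMR304C-A* (3.24) and *YFR052C-A* (3.14), to which no role is given here. Counts of *YER138W-A* are uncertain, because *MOR1*, YIL060W and YOR192C-C are near-identical copies.

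*ADH2* (YMR303C), the alcohol dehydrogenase that oxidises ethanol, had 15.1, 10.7 and 23.8 CPM in libraries 4A, 4B and 4C, against 1000.3, 1378 and 2982 CPM in 3A, 3B and 3C. The lowest 2 µg/mL library was thus far above the highest 4 µg/mL one, and *ADH2* fell 108-fold (log2 fold change −6.76 (SE 0.57, adjusted p = 0.00076)). *FDH1* (YOR388C), formate dehydrogenase, had 1.05, 0.397 and 0.827 CPM at 4 µg/mL, against 87.0, 74.5 and 228 CPM at 2 µg/mL. It fell 171-fold (log2 fold change −7.42 (SE 0.61, adjusted p = 0.00072)), but its reads can be shared with the near-identical *FDH2* and YPL276W. *STL1*, the proton symporter for glycerol, had 11.2, 3.08 and 7.86 CPM at 4 µg/mL, against 194, 362 and 414 CPM at 2 µg/mL (log2 fold change −5.46 (SE 0.49, adjusted p = 0.00099)). *GDH3*, the glutamate dehydrogenase of cells on non-fermentable carbon, had 249, 75.0 and 14.7 CPM in libraries 4A, 4B and 4C, against 4103, 3410.3 and 4323 CPM in 3A, 3B and 3C (log2 fold change −5.13 (SE 0.91, adjusted p = 0.006)). The 2 µg/mL values of *GDH3* were close together, while those at 4 µg/mL spread widely. *DPA10* (log2 fold change −5.94), *SPG1* (−5.03) and *RGI2* (−4.92) complete the 12 largest falls, together with 5 genes given under carbon use. Without both 4C and 3C, the value of *RGI2* was −3.07 and that of *MCH5* was 2.20, and both remained called.

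**Figure D2:**
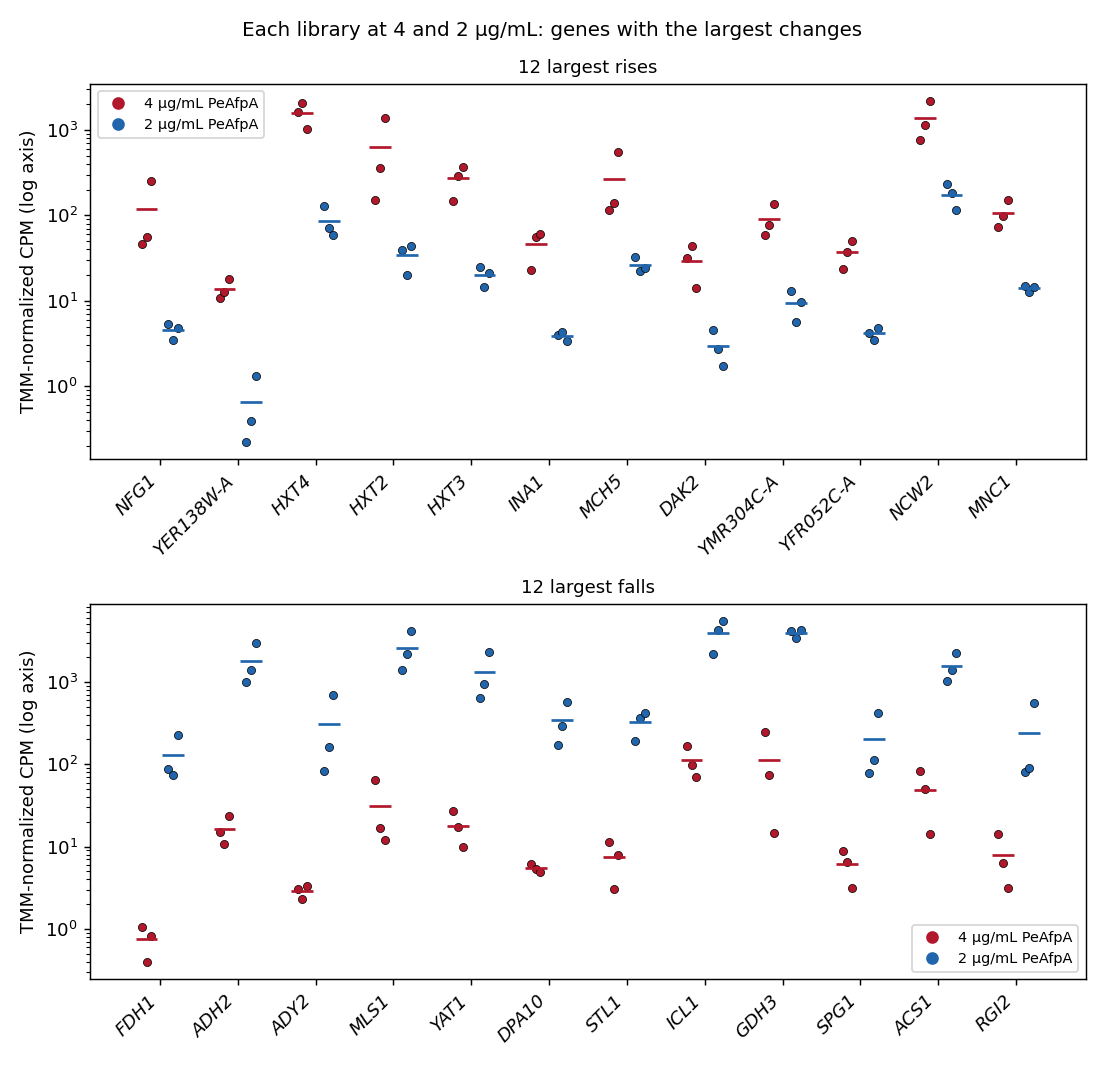
TMM-normalized CPM (log axis) of the 12 genes with the largest rises (top) and the 12 with the largest falls (bottom), each library a point and the group mean a bar, with 4 µg/mL in red left of 2 µg/mL in blue. The 24 genes were chosen among DEGs whose doses do not overlap. *NFG1*, *HXT2* and *MCH5* show 1 library of 4 µg/mL (4C) well above the others of that dose.

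The lowest adjusted p-values belonged to genes with tight groups rather than to those with the largest changes. *THI4*, needed to make the thiazole part of thiamine, had 34.9, 22.5 and 21.1 CPM at 4 µg/mL, against 561, 372 and 459 CPM at 2 µg/mL (log2 fold change −4.15 (SE 0.27, adjusted p = 0.00062)). *SOA1*, a transporter of sulfur compounds, had 8.82, 7.25 and 7.86 CPM in libraries 4A, 4B and 4C, against 56.1, 52.5 and 43.8 CPM in 3A, 3B and 3C (log2 fold change −2.67 (SE 0.19, adjusted p = 0.00062)). *PMA2*, a minor form of the plasma membrane proton pump, *ZTA1*, a quinone reductase, and *FMP23*, a mitochondrial protein, also fell (log2 fold changes −2.80, −2.38 and −2.80, adjusted p = 0.00062, 0.00063 and 0.00062).

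Genes for 2-carbon use and for making sugars were lower at 4 µg/mL almost throughout. Of the 11 genes of the glyoxylate cycle and gluconeogenesis, 9 fell, none rose, and the median log2 fold change was −3.24 beside −0.01 for all genes tested. *ICL1* (YER065C), isocitrate lyase, which opens the glyoxylate bypass, had 166, 96.9 and 71.0 CPM at 4 µg/mL, against 2170.0, 4212 and 5528 CPM at 2 µg/mL. *MLS1*, the malate synthase that closes it, had 64.0, 16.9 and 12.1 CPM in libraries 4A, 4B and 4C, against 1385, 2207 and 4177 CPM in 3A, 3B and 3C. In both genes the doses were separated by a factor many times the spread within a dose (log2 fold change −5.16 (SE 0.52, adjusted p = 0.0013) and log2 fold change −6.38 (SE 0.80, adjusted p = 0.002)).

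*FBP1*, the fructose-1,6-bisphosphatase of gluconeogenesis, had 210.4, 89.9 and 20.8 CPM at 4 µg/mL, against 696, 1118 and 2287 CPM at 2 µg/mL (log2 fold change −3.67 (SE 0.79, adjusted p = 0.012)). *PCK1*, the phosphoenolpyruvate carboxykinase that starts gluconeogenesis, had 464, 165 and 36.2 CPM at 4 µg/mL, against 1417, 2344 and 5945 CPM at 2 µg/mL (log2 fold change −3.87 (SE 0.92, adjusted p = 0.016)). In both, the 3 libraries of 4 µg/mL spread over a wide range, 4C being the lowest, and the call of *PCK1* was lost without 4B (adjusted p = 0.053). *SFC1*, the carrier that brings succinate into mitochondria in exchange for fumarate, was also called (log2 fold change −3.45, adjusted p = 0.027), but not without 4B, 3B or 3C (adjusted p = 0.075, 0.069 and 0.073). *CIT2*, the peroxisomal citrate synthase, *IDP2*, the cytosolic isocitrate dehydrogenase, and *ICL2*, a 2-methylisocitrate lyase, fell with log2 fold changes of −3.24, −2.98 and −2.90 in every fit. *MDH2* and *MDH3*, the cytosolic and peroxisomal malate dehydrogenases, did not pass (log2 fold changes −1 and −0.63, adjusted p = 0.052 and 0.076). Leaving out 1 library at a time gave 6 to 10 falls on this list.

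Of 12 genes for the use of acetate, lactate and ethanol, 9 fell and 1 rose (median −1.62), and the counts were the same without any 1 library. *ACS1*, the acetyl-CoA synthetase of cells on acetate, had 82.9, 50.3 and 14.2 CPM at 4 µg/mL, against 1036, 1409 and 2229 CPM at 2 µg/mL (log2 fold change −4.98 (SE 0.65, adjusted p = 0.0023)). *ADY2*, an acetate transporter, had 3.04, 2.29 and 3.31 CPM in libraries 4A, 4B and 4C, against 81.8, 161 and 686 CPM in 3A, 3B and 3C (log2 fold change −6.76 (SE 0.86, adjusted p = 0.0022)). *JEN1*, the lactate and pyruvate transporter, had 214, 102 and 61.9 CPM at 4 µg/mL, against 894, 1213 and 3259 CPM at 2 µg/mL (log2 fold change −3.83 (SE 0.64, adjusted p = 0.0048)). In *ADY2* and *JEN1* library 3C was the highest by a wide margin, as it was in many genes of carbon use. *ATO2*, *CYB2*, *DLD1* and *DLD3* fell less (log2 fold changes −3.52, −1.47, −1.40 and −1.12). The 1 that rose was *ALD3*, a cytosolic aldehyde dehydrogenase, with 125, 190.4 and 259.8 CPM at 4 µg/mL, against 70.2, 65.4 and 92.7 CPM at 2 µg/mL (log2 fold change 1.33 (SE 0.27, adjusted p = 0.0088)), while its neighbour *ALD2* fell (log2 fold change −0.67, adjusted p = 0.019, and 0.077 without 3A).

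All 18 genes of the carnitine shuttle and fatty acid oxidation had negative log2 fold changes, and 15 of them fell (median −1.57; 13 to 17 with 1 library left out). The carnitine acetyltransferases carry acetyl units into mitochondria. *YAT1* (YAR035W), the one on the outer mitochondrial membrane, had 26.9, 17.2 and 9.92 CPM in libraries 4A, 4B and 4C, against 645, 947 and 2307 CPM in 3A, 3B and 3C (log2 fold change −6.17 (SE 0.63, adjusted p = 0.0013)). *YAT2*, a cytosolic one, had 88.0, 61.9 and 47.5 CPM at 4 µg/mL, against 653, 967 and 2436 CPM at 2 µg/mL (log2 fold change −4.36 (SE 0.54, adjusted p = 0.0019)). *CRC1*, the mitochondrial carnitine carrier, had 19.5, 12.3 and 5.79 CPM at 4 µg/mL, against 106, 210.0 and 596 CPM at 2 µg/mL (log2 fold change −4.58 (SE 0.69, adjusted p = 0.0036)). The doses of all 3 genes were far apart, and 3C was the highest library in each. *POX1*, the acyl-CoA oxidase, and *FAA2*, a peroxisomal acyl-CoA synthetase, missed the threshold (log2 fold changes −1.23 and −0.87, adjusted p = 0.061 and 0.11).

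The promoters of 3 such genes are shown because they hold the core of the carbon source response element, which Cat8 and Sip4 bind. Each is 300 bases, 250 before the start codon and 50 from it on, written in the direction of the gene from the RefSeq sequence of build R64; capitals mark each match to CC and CCG with 6 bases between them, searched on both strands, with overlapping matches joined. *YAT1* (chrI:189943-190242, plus strand) had 4 matches, the first 171 bases before the start codon, *ACS1* (chrI:44973-45272, minus strand) had 1 at 221 bases and *YAT2* (chrV:201942-202241, plus strand) had 1 at 169 bases.
YAT1: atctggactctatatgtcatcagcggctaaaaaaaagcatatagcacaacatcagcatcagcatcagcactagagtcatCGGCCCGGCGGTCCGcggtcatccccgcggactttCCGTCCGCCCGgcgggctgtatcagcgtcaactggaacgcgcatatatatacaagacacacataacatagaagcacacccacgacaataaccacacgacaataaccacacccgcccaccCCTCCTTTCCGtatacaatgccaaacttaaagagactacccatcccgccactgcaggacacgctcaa
ACS1: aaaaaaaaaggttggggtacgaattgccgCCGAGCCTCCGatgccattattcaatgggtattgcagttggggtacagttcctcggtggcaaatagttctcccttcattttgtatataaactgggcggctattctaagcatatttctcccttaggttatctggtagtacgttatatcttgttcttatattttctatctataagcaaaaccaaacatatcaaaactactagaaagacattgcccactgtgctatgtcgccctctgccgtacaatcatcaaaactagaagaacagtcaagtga
YAT2: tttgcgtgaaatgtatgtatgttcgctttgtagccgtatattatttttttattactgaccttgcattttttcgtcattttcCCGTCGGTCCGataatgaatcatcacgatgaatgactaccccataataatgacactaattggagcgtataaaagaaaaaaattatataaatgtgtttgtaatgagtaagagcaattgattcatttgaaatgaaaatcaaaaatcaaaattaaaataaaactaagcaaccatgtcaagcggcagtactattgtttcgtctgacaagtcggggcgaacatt
Such a match was in 579 of the 5647 promoters of tested genes (10.3%), in 138 of the 981 of genes that fell (14.1%), in 76 of the 792 of genes that rose (9.6%) and in 6 of the 18 of the carnitine and fatty acid list (33.3%). None of the 11 promoters on the glyoxylate and gluconeogenesis list had one in this window. On the acetate, lactate and ethanol list, which holds *ACS1*, 1 of 12 had one (8.3%). A match is a description of the letters and not a binding site.

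Regulators of carbon use moved in both directions: 4 of 20 rose and 6 fell. *MIG2*, a repressor of genes that glucose shuts off, had 247, 287 and 216 CPM at 4 µg/mL, against 84.3, 90.4 and 26.7 CPM at 2 µg/mL (log2 fold change 1.90 (SE 0.40, adjusted p = 0.01)). *HXK2*, the hexokinase that also serves in glucose repression, had 1328, 1543 and 2098 CPM in libraries 4A, 4B and 4C, against 751, 632 and 459 CPM in 3A, 3B and 3C (log2 fold change 1.43 (SE 0.29, adjusted p = 0.0099)). *REG2*, a regulatory subunit of the phosphatase Glc7, had 35.0, 33.3 and 8.41 CPM at 4 µg/mL, against 123, 195 and 451 CPM at 2 µg/mL (log2 fold change −3.32 (SE 0.61, adjusted p = 0.0068)), with 4C and 3C at the 2 ends. *RDS2* and *ERT1*, activators of gluconeogenic genes, and *MIG3* fell (log2 fold changes −1.18, −0.88 and −1.12), *ERT1* not without 4B or 3B (adjusted p = 0.05 and 0.054). *SIP4* had 16.8, 14.6 and 16.1 CPM at 4 µg/mL, against 21.1, 35.8 and 109 CPM at 2 µg/mL and a log2 fold change of −1.81, which was −0.84 without 3C, and its call was lost without 4B, 4C or 3B (adjusted p = 0.082, 0.064 and 0.054). *SNF1*, *MIG1*, *CAT8*, *ADR1* and *HAP4* did not pass, with log2 fold changes of −0.17, 0.25, −0.91, −0.44 and −0.65 and adjusted p from 0.093 to 0.36. The list's count of rises was 2 without 3A or 3B, and its count of falls 3 without 4B or 3B. The rises of *GLC7* (log2 fold change 0.93; adjusted p = 0.081 and 0.087) and *SNF4* (0.63; 0.088 and 0.085) were those lost without 3A or 3B, and *SNF4* was also lost without 4B (0.065).

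Of 17 hexose transporter genes 8 reached the level tested, and 4 rose and 2 fell (median 1.67). Beside *HXT4*, *HXT2* and *HXT3*, the high-affinity transporters *HXT7* and *HXT6* went opposite ways. *HXT7* had 242, 281 and 332 CPM at 4 µg/mL, against 111, 100.2 and 83.0 CPM at 2 µg/mL (log2 fold change 1.54 (SE 0.18, adjusted p = 0.0017)). *HXT6* had 23.2, 18.4 and 8.27 CPM in libraries 4A, 4B and 4C, against 179, 139 and 247 CPM in 3A, 3B and 3C (log2 fold change −3.49 (SE 0.37, adjusted p = 0.0013)). The 2 coding sequences are near-identical, so how reads were shared between them could not be checked, and both values are uncertain. *HXT5*, the transporter of slowly growing cells, had 522, 382 and 244 CPM at 4 µg/mL, against 903, 1035 and 2800.1 CPM at 2 µg/mL (log2 fold change −2.04 (SE 0.49, adjusted p = 0.016)), and 3C was the highest. Without 3C its log2 fold change was −1.34, and without 4B its call was lost (adjusted p = 0.052), and the list then had 1 fall. *HXT1* stayed low in all libraries (0.129 to 5.24 CPM) and missed the threshold (log2 fold change 1.79, adjusted p = 0.057).

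Among 8 genes of hexose sensing, 2 rose and 3 fell. *RGT2* and *SNF3*, the glucose sensors for high and low sugar, were lower at 4 µg/mL (log2 fold changes −1.01 and −1.06, adjusted p = 0.0058 and 0.02), as was *RGT1*, the repressor of the *HXT* genes, with 77.0, 62.1 and 49.5 CPM at 4 µg/mL, against 131, 148 and 139.9 CPM at 2 µg/mL (log2 fold change −1.15 (SE 0.18, adjusted p = 0.0037)). Its corepressors *STD1* and *MTH1* were higher (log2 fold changes 0.97 and 0.90). The call of *SNF3* was lost without 3C (adjusted p = 0.056), and that of *MTH1* without 3A (0.066) or 3B (0.07), which left 1 rise.

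Genes of glycolysis were mostly above zero, with 4 of 21 higher, 1 lower and a median of 0.59. *HXK1*, hexokinase 1, had 1057, 1503 and 1680.4 CPM at 4 µg/mL, against 282, 240.3 and 234 CPM at 2 µg/mL, with no overlap (log2 fold change 2.49 (SE 0.26, adjusted p = 0.0013)). *PDC6*, a minor pyruvate decarboxylase, fell, with 9.97, 8.05 and 6.89 CPM at 4 µg/mL, against 104, 60.9 and 61.8 CPM at 2 µg/mL (log2 fold change −3.18 (SE 0.27, adjusted p = 0.00076)). *TDH3*, *FBA1*, *ENO2* and *ADH1*, which encode abundant enzymes of the pathway, did not pass (log2 fold changes 0.38, 0.32, 0.96 and 0.98, adjusted p = 0.5, 0.57, 0.053 and 0.069). With any library but 4C left out, 2 genes rose, and *GPM1*, phosphoglycerate mutase, lost its call each time (log2 fold change 0.99, adjusted p = 0.049, and 0.18 without 3B). Of 7 genes for glycerol, *STL1*, *GUT1* (glycerol kinase, log2 fold change −1.92) and *GUT2* (mitochondrial glycerol-3-phosphate dehydrogenase, −1.05) fell and *DAK2* rose, in every fit with 1 library left out.

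Of 17 genes of the tricarboxylic acid cycle 8 fell and none rose (median −0.96), but the count was 2 without 4B, 3 without 3B, 4 without 3A or 3C and 13 without 4A. *CIT3*, a minor mitochondrial citrate synthase, had 21.1, 13.4 and 11.3 CPM at 4 µg/mL, against 166, 178 and 410.4 CPM at 2 µg/mL and remained called in every fit (log2 fold change −4.04 (SE 0.42, adjusted p = 0.0013)). *KGD1*, of the 2-oxoglutarate dehydrogenase complex, had 993, 609 and 323 CPM in libraries 4A, 4B and 4C, against 1769, 2011 and 2199.5 CPM in 3A, 3B and 3C (log2 fold change −1.64 (SE 0.40, adjusted p = 0.018); adjusted p = 0.061 without 4B and 0.059 without 3B). *MDH1*, the mitochondrial malate dehydrogenase, did not pass (log2 fold change −0.94, adjusted p = 0.063). Of 36 genes of the respiratory chain and ATP synthase, 5 fell (13.9%) and 1 rose (2.78%), both under the shares of all genes (median −0.25). With 1 library left out 1 to 6 fell, the count being 1 without 4B or 3B, 2 without 3A and 3 without 3C. The alternative forms of cytochrome oxidase subunit 5 moved apart: *COX5B* had 105, 134 and 96.9 CPM at 4 µg/mL, against 38.5, 44.3 and 37.0 CPM at 2 µg/mL (log2 fold change 1.49 (SE 0.16, adjusted p = 0.0014)), while *COX5A* had 632, 447 and 317 CPM at 4 µg/mL, against 944, 1194 and 1105 CPM at 2 µg/mL (log2 fold change −1.21 (SE 0.29, adjusted p = 0.016); adjusted p = 0.061 without 4B and 0.063 without 3B). *NDE2*, an external NADH dehydrogenase, also fell (log2 fold change −2.72, adjusted p = 0.0041).

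**Figure D3:**
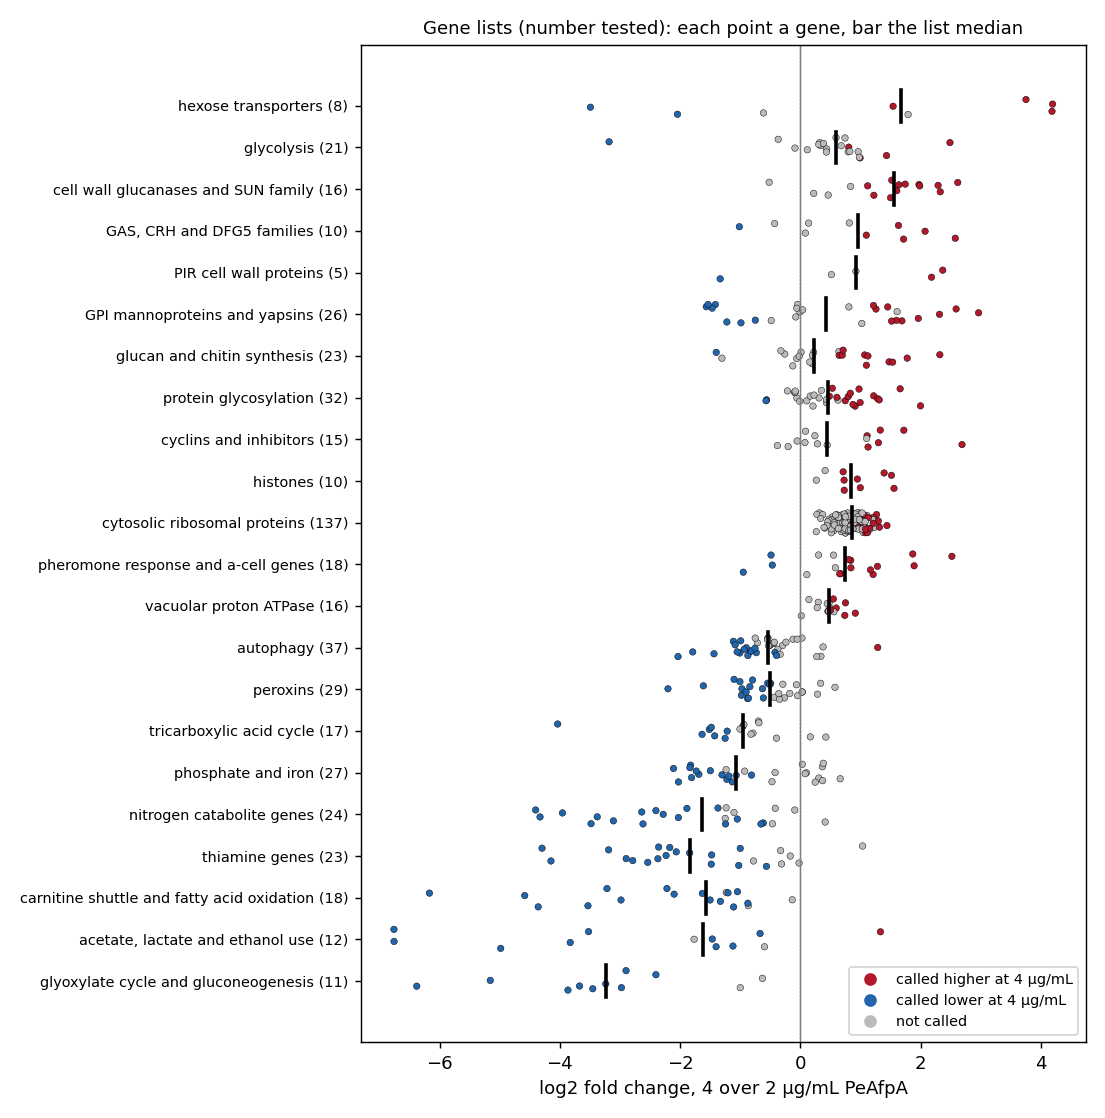
Log2 fold change (4 over 2 µg/mL) of every tested gene on 22 of the lists, each point a gene, red where called higher, blue where called lower and grey where not called, with the list median as a black bar and the number tested in brackets. Glyoxylate, acetate, carnitine, nitrogen and thiamine genes lie mostly to the left, with medians from −1.57 to −3.24, and hexose transporters and wall glucanases to the right, with medians of 1.67 and 1.56.

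Genes for poor nitrogen sources fell, and at 2 µg/mL they were high in 3A above all. Of 24 such genes 17 fell and none rose (median −1.63). *MEP2*, the high-affinity ammonium permease, had 458, 298 and 88.1 CPM at 4 µg/mL, against 3919.7, 2533 and 832 CPM at 2 µg/mL (log2 fold change −3.11 (SE 0.71, adjusted p = 0.014)). *UGA4*, the GABA permease, had 34.2, 20.3 and 6.75 CPM at 4 µg/mL, against 996, 229 and 79.5 CPM at 2 µg/mL (log2 fold change −4.40 (SE 0.95, adjusted p = 0.011)). *DAL80*, a GATA-binding repressor of these genes, had 24.1, 15.0 and 5.65 CPM in libraries 4A, 4B and 4C, against 478, 185 and 41.1 CPM in 3A, 3B and 3C (log2 fold change −3.96 (SE 0.85, adjusted p = 0.011)). In the 3 genes 3A was the highest 2 µg/mL library and 3C the lowest, and 4C was the lowest of all. Summed over the list, these genes took 1.19, 1.08 and 0.534% of the counts in 4A, 4B and 4C, against 2.91, 2.07 and 1.60% in 3A, 3B and 3C.

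The falls numbered 8 without 4B, 3A or 3B, and 12 without 4C. Without 3A the log2 fold change of *UGA4* was −2.90 (adjusted p = 0.02). *DAL4*, the allantoin permease, had 3.04, 3.08 and 4.13 CPM at 4 µg/mL, against 192, 10.8 and 2.10 CPM at 2 µg/mL, so that its groups overlapped and its value rested on 3A. Its log2 fold change was −4.33 (adjusted p = 0.046), and −0.90 without 3A (adjusted p = 0.34), and of the fits with 1 library left out only that without 3C kept the call (adjusted p from 0.056 to 0.34 in the rest). *DAL7*, an allantoin-induced malate synthase also counted with the glyoxylate genes, had 175, 116 and 60.5 CPM at 4 µg/mL, against 1194, 534 and 134 CPM at 2 µg/mL and a log2 fold change of −2.40 (adjusted p = 0.033), which was −1.51 without 3A (adjusted p = 0.11). Its call was also lost without 4B, 4C or 3B (adjusted p = 0.08, 0.074 and 0.078). *GAP1*, the general amino acid permease, had 1658, 1272 and 281 CPM in libraries 4A, 4B and 4C, against 5509, 3723 and 2649.7 CPM in 3A, 3B and 3C (log2 fold change −1.89 (SE 0.61, adjusted p = 0.046)), and lost the call without 4B, 3A, 3B or 3C (adjusted p from 0.059 to 0.12). *GLN1*, glutamine synthetase, differed little (log2 fold change −0.09, adjusted p = 0.87).

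The promoters of *DAL7* (chrIX:414630-414929, minus strand) and *DAL80* (chrXI:506648-506947, plus strand) are shown for their GATA elements. Window, build and direction are those of the *YAT1* promoter, and capitals mark GATAAG or, on the other strand, CTTATC.
DAL7: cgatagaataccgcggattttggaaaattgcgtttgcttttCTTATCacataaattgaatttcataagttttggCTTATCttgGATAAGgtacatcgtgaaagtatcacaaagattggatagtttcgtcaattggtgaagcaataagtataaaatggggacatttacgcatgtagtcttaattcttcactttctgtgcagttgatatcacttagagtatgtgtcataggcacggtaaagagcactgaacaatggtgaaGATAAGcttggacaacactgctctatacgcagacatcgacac
DAL80: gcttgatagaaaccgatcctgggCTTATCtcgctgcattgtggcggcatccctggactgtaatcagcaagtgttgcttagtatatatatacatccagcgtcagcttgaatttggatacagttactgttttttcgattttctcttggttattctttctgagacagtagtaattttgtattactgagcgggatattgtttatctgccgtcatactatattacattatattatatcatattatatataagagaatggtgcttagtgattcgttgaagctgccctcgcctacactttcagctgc
*DAL7* had 4 matches, of which those at 209, 176 and 167 bases lay before the start codon and 1 lay within the coding part of the window, and *DAL80* had 1 at 227 bases. The letters were in 826 of the 5647 promoters of tested genes (14.6%), in 189 of 981 of genes that fell (19.3%), in 102 of 792 of genes that rose (12.9%) and in 14 of the 24 on the nitrogen list (58.3%).

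Thiamine genes fell as a group: 17 of 23 were lower and none was higher (median −1.84). The count changed little with the library left out (14 to 18 falls), although single genes spread within 4 µg/mL. Beside *THI4*, *THI73*, a plasma membrane permease, had 21.8, 11.5 and 36.8 CPM at 4 µg/mL, against 445, 379 and 546 CPM at 2 µg/mL (log2 fold change −4.30 (SE 0.40, adjusted p = 0.001)). *THI7*, the thiamine transporter, had 327, 209 and 338 CPM in libraries 4A, 4B and 4C, against 820.1, 811 and 802 CPM in 3A, 3B and 3C (log2 fold change −1.48 (SE 0.24, adjusted p = 0.0043)). The 2 µg/mL values of *THI7* were nearly equal. *SNZ3*, of vitamin B6 synthesis, had 19.4, 9.64 and 2.62 CPM at 4 µg/mL, against 99.7, 105 and 89.8 CPM at 2 µg/mL (log2 fold change −3.19 (SE 0.51, adjusted p = 0.0042)), and its reads may be shared with *SNZ2*, 1 of 8 genes on the list with a near-identical copy. *SNZ1* and *SNO1*, of the same pathway, did not pass (log2 fold changes −0.33 and 1.03, adjusted p = 0.4 and 0.07).

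Of 25 genes for sulfate and methionine 10 fell and 2 rose (median −0.24), with 5 falls without 4B or 3A and 6 without 3B. *SAM3*, the S-adenosylmethionine permease, had 60.6, 51.1 and 73.9 CPM at 4 µg/mL, against 193, 144 and 192 CPM at 2 µg/mL (log2 fold change −1.51 (SE 0.19, adjusted p = 0.0021)), and *MMP1*, the S-methylmethionine permease, fell alike (log2 fold change −1.69, adjusted p = 0.0031). *CYS3*, *SAM2* and *MET6* spread widely within a dose and did not pass (adjusted p = 0.066, 0.15 and 0.38). No gene rose without 3B and 1 without 4B, while 4 passed without 4A.

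Amino acid permeases split, with 4 of 20 higher and 9 lower (median −0.79). *GNP1*, a permease for glutamine and other amino acids, had 252, 266 and 384 CPM at 4 µg/mL, against 24.0, 40.1 and 105 CPM at 2 µg/mL (log2 fold change 2.41 (SE 0.48, adjusted p = 0.0091)). *BAP3*, for branched-chain amino acids, had 379, 354 and 409 CPM at 4 µg/mL, against 108, 159 and 207 CPM at 2 µg/mL (log2 fold change 1.27 (SE 0.24, adjusted p = 0.0072)). *PUT4*, the proline permease, went the other way, with 269.7, 192 and 112 CPM at 4 µg/mL, against 735, 663 and 1394 CPM at 2 µg/mL (log2 fold change −2.28 (SE 0.40, adjusted p = 0.0059)), as did *AGP2* and *AGP3* (log2 fold changes −2.10 and −2.18). *AGP1* and *CAN1*, broad and arginine permeases, did not pass (log2 fold changes −0.64 and −1.01, adjusted p = 0.16 and 0.076). The rises were 2 without 3A or 3B, and the falls ranged from 6 to 10.

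Of 27 genes for phosphate and iron 14 fell and none rose (median −1.07; 10 to 15 falls with 1 library left out). *SIT1* and *ENB1*, siderophore transporters, had log2 fold changes of −1.84 and −2.11 (adjusted p = 0.0082 and 0.01), with 4C the lowest library of both. *PHO89*, the sodium-phosphate cotransporter, had 118, 171 and 524 CPM at 4 µg/mL, against 671, 589.5 and 2052 CPM at 2 µg/mL and passed narrowly (log2 fold change −2.03 (SE 0.66, adjusted p = 0.047)). Its value was −1.22 without 3C (adjusted p = 0.15), and it also lost the call without 4A, 4B, 3A or 3B (adjusted p = 0.075, 0.13, 0.06 and 0.068). *PHO84*, the main phosphate transporter, was not called (log2 fold change −0.47, adjusted p = 0.27).

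Genes for building and remodelling the cell wall were higher at 4 µg/mL on most lists. Of 16 wall glucanases and SUN family genes, 12 rose and none fell (median 1.56). *SCW10*, a wall protein related to glucanases, had 1250.2, 1502 and 2969 CPM at 4 µg/mL, against 542, 376 and 223 CPM at 2 µg/mL (log2 fold change 2.33 (SE 0.44, adjusted p = 0.0074)). *DSE2*, which daughter cells secrete to come away from the mother, had 198, 344 and 246 CPM in libraries 4A, 4B and 4C, against 49.5, 27.1 and 51.7 CPM in 3A, 3B and 3C (log2 fold change 2.62 (SE 0.30, adjusted p = 0.0016)). *BGL2*, the main endo-β-1,3-glucanase of the wall, had 1485, 1608 and 2610.0 CPM at 4 µg/mL, against 1019, 843 and 765 CPM at 2 µg/mL (log2 fold change 1.12 (SE 0.30, adjusted p = 0.026)). Library 4C was the highest in *SCW10* and *BGL2*, and the doses did not overlap in the 3 genes. *DSE1* rose too (log2 fold change 2.29, adjusted p = 0.021), but *UTH1* and *NCA3*, of the SUN family, did not pass (log2 fold changes 0.46 and −0.52, adjusted p = 0.31 and 0.31). The count was 8 without 3B and 10 to 12 without another library. The call of *BGL2* was lost without 4B, 3A, 3B or 3C (adjusted p from 0.055 to 0.1) and that of *DSE1* without 3A or 3B (adjusted p = 0.07 and 0.051).

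Enzymes that extend and join glucan chains rose in 5 of 10 cases and fell in 1 (median 0.95). *GAS1*, the main β-1,3-glucanosyltransferase, had 2077, 2213 and 3539 CPM at 4 µg/mL, against 1101, 797 and 630.5 CPM at 2 µg/mL (log2 fold change 1.63 (SE 0.34, adjusted p = 0.01); adjusted p = 0.056 without 3B). *CRH1*, which links chitin to glucan, had 1325, 1472 and 2395 CPM at 4 µg/mL, against 565, 393 and 275 CPM at 2 µg/mL (log2 fold change 2.07 (SE 0.36, adjusted p = 0.0057)). Its relative *UTR2* had 178, 360.4 and 241 CPM at 4 µg/mL, against 50.4, 52.3 and 28.4 CPM at 2 µg/mL (log2 fold change 2.58 (SE 0.32, adjusted p = 0.0019)). *GAS3* and *DFG5* also rose (log2 fold changes 1.72 and 1.10). *CRR1*, a homologue that acts in the spore wall, fell (log2 fold change −1.02, adjusted p = 0.035), and lost the call without 4A, 4B, 3A or 3B (adjusted p = 0.07, 0.085, 0.094 and 0.13).

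Of the 5 PIR genes, for proteins bound directly to wall glucan, *CIS3* and *PIR1* rose and *PIR5* fell. *CIS3* had 1105, 1377 and 2997 CPM in libraries 4A, 4B and 4C, against 473, 361 and 228 CPM in 3A, 3B and 3C (log2 fold change 2.37 (SE 0.45, adjusted p = 0.0073)). *PIR1* had 665, 881 and 1961 CPM at 4 µg/mL, against 333, 253 and 187 CPM at 2 µg/mL (log2 fold change 2.18 (SE 0.43, adjusted p = 0.0085)). Within a dose 4C was the highest and 3C the lowest in both genes, and without both libraries their log2 fold changes were 1.56 and 1.39, still called. *PIR5* stayed at 17.0 CPM or less (log2 fold change −1.33, adjusted p = 0.02), and its call was lost without 4B, 3A or 3B (adjusted p = 0.058, 0.083 and 0.051). *HSP150* and *PIR3* missed the threshold (log2 fold changes 0.92 and 0.52, adjusted p = 0.1 and 0.3).

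GPI-anchored mannoproteins and the yapsins, which are surface proteases, moved both ways, with 10 of 26 higher and 7 lower (median 0.42). *NCW2*, a wall mannoprotein, had 766, 1134 and 2202 CPM at 4 µg/mL, against 230.4, 182 and 114 CPM at 2 µg/mL (log2 fold change 2.96 (SE 0.45, adjusted p = 0.0036)). *SRL1*, a mannoprotein that buffers a weak wall, had 179, 220.3 and 623 CPM at 4 µg/mL, against 68.7, 64.5 and 36.7 CPM at 2 µg/mL (log2 fold change 2.59 (SE 0.48, adjusted p = 0.0071)). *YPS3*, a yapsin, had 610.4, 712 and 973 CPM in libraries 4A, 4B and 4C, against 241, 145 and 75.8 CPM in 3A, 3B and 3C (log2 fold change 2.31 (SE 0.41, adjusted p = 0.0059)). All 3 genes were separated by dose. *CCW12*, a major mannoprotein, had 4678, 5646 and 11513 CPM at 4 µg/mL, against 3181, 2221 and 1375 CPM at 2 µg/mL. *CWP2*, another, had 7299.9, 9405 and 14739.7 CPM at 4 µg/mL, against 4781, 3856 and 2358 CPM at 2 µg/mL. They passed in the 6 libraries (log2 fold changes 1.69 and 1.52, adjusted p = 0.033 and 0.038), and lost the call without 4B, 3A, 3B or 3C (adjusted p from 0.052 to 0.12 and from 0.071 to 0.12). *SED1*, another abundant one, was not called (log2 fold change 1.02, adjusted p = 0.13). *DAN4*, a mannoprotein of anaerobic cells, fell, with 16.2, 21.4 and 16.5 CPM at 4 µg/mL, against 49.1, 49.3 and 51.3 CPM at 2 µg/mL (log2 fold change −1.47 (SE 0.18, adjusted p = 0.0018)). On this list 5 rose without 3B and 6 without 3C, and 3 fell without 4B and 4 without 3B or 3C.

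**Figure D4:**
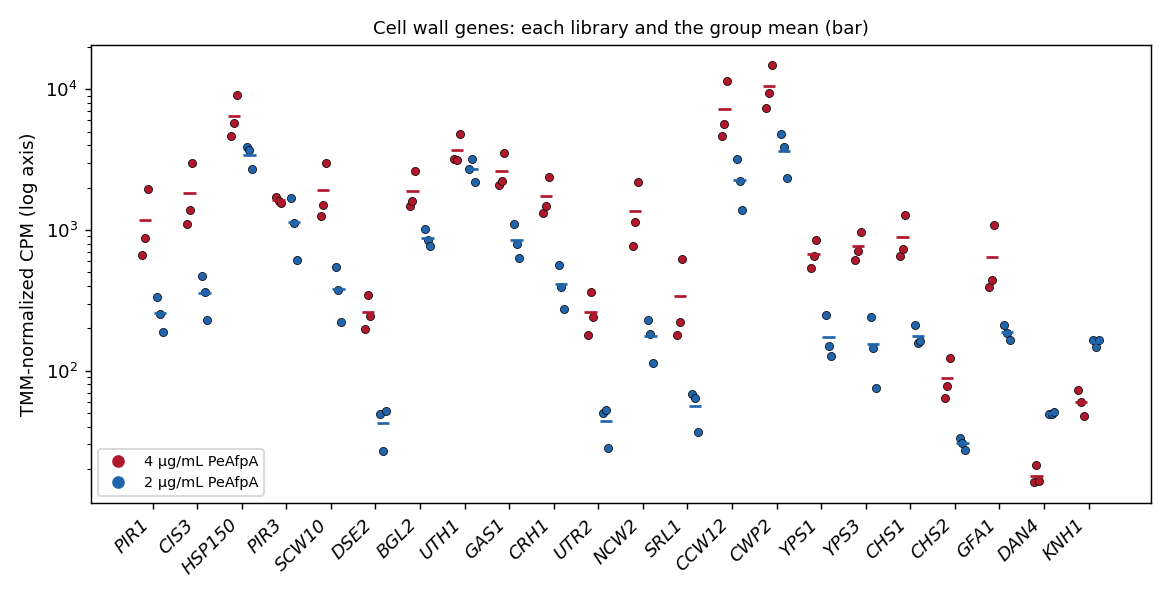
TMM-normalized CPM (log axis) of 22 cell wall genes, each library a point and the group mean a bar, 4 µg/mL in red left of 2 µg/mL in blue. *PIR1* to *GFA1* lie higher at 4 µg/mL, with an overlap of the doses in *PIR3* and *UTH1*, and *DAN4* and *KNH1* lie lower.

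Glucan and chitin synthesis genes rose in 10 of 23 cases and fell in 1 (median 0.22). *CHS1*, the chitin synthase for repair after division, had 649, 737 and 1268 CPM at 4 µg/mL, against 213, 158 and 162 CPM at 2 µg/mL (log2 fold change 2.32 (SE 0.30, adjusted p = 0.0023)). *CHS2*, that of the septum, had 64.2, 78.1 and 123 CPM at 4 µg/mL, against 33.4, 30.9 and 27.4 CPM at 2 µg/mL (log2 fold change 1.53 (SE 0.24, adjusted p = 0.004)). *GFA1*, the first enzyme of the chitin precursor, had 396, 442 and 1086 CPM in libraries 4A, 4B and 4C, against 210.2, 186 and 166 CPM in 3A, 3B and 3C (log2 fold change 1.78 (SE 0.38, adjusted p = 0.011)). Its value was 1.16 without 4C, and its call was lost without 3B (adjusted p = 0.053). *KNH1*, a homologue of the β-1,6-glucan gene *KRE9*, was the 1 that fell, with 73.5, 60.4 and 47.4 CPM at 4 µg/mL, against 165, 147 and 167 CPM at 2 µg/mL (log2 fold change −1.40 (SE 0.18, adjusted p = 0.0022)). The rises were 5 without 3A and 3 without 3B. Protein glycosylation, which builds the mannan of the wall, had 15 of 32 genes higher and 2 lower (median 0.46), and 7 higher without 3B. *PSA1*, which makes GDP-mannose, had 1212, 1488 and 2584 CPM at 4 µg/mL, against 581, 361 and 383 CPM at 2 µg/mL (log2 fold change 2.00 (SE 0.36, adjusted p = 0.0063)). *KTR2*, a mannosyltransferase, and *ALG7*, the first step of the N-glycan precursor, rose in every fit (log2 fold changes 1.66 and 1.31). The 2 that fell, *PMT3* and *PMT5*, changed little (log2 fold changes −0.56 and −0.57, adjusted p = 0.023 and 0.039), and both calls were lost without 4B, 3A or 3B (*PMT3* adjusted p = 0.1, 0.097 and 0.059; *PMT5* 0.12, 0.091 and 0.079).

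The CWI pathway itself had 5 of 23 genes higher (21.7%, against 14.2% of all genes) and 4 lower (17.4%, against 16.9%), with a median of 0.07. The share that fell was thus near that of all genes. *WSC2*, a sensor of the cell surface, had 131, 153 and 286 CPM at 4 µg/mL, against 51.2, 40.7 and 31.4 CPM at 2 µg/mL (log2 fold change 2.21 (SE 0.32, adjusted p = 0.0032)). *MID2*, another sensor, which shares sequence with the overlapping *JIP3*, had 197, 206 and 284 CPM at 4 µg/mL, against 89.7, 99.8 and 65.8 CPM at 2 µg/mL (log2 fold change 1.43 (SE 0.21, adjusted p = 0.0035)). *RHO1*, the GTPase below them, had 613, 766 and 1079 CPM at 4 µg/mL, against 347, 330.1 and 266 CPM at 2 µg/mL (log2 fold change 1.38 (SE 0.26, adjusted p = 0.0071)). *SLT2*, the MAP kinase at the end of the cascade, had 258, 301 and 411 CPM in libraries 4A, 4B and 4C, against 147, 102 and 96.7 CPM in 3A, 3B and 3C (log2 fold change 1.49 (SE 0.24, adjusted p = 0.0042)). *PTP2*, a phosphatase that acts on it, also rose (log2 fold change 1.69, adjusted p = 0.0024). These 5 rises held with any 1 library left out.

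The kinases between *RHO1* and *SLT2* did not follow. *MKK1* and *MKK2*, the MAP kinase kinases, fell (log2 fold changes −0.64 and −0.74, adjusted p = 0.01 and 0.015, and 0.056 for *MKK2* without 3B), and *PKC1* fell by a small amount (log2 fold change −0.40, adjusted p = 0.05), a call lost with any library but 4C left out (adjusted p from 0.078 to 0.17). *SDP1*, another phosphatase of *SLT2*, had 3.88, 3.78 and 2.89 CPM at 4 µg/mL, against 15.1, 16.7 and 22.6 CPM at 2 µg/mL (log2 fold change −2.35 (SE 0.28, adjusted p = 0.0017)). *BCK1*, *RLM1*, the sensors *SLG1*, *WSC3* and *MTL1*, and the exchange factors *ROM1*, *ROM2* and *TUS1* did not pass, with log2 fold changes from −0.54 to 0.47. The falls were 2 without 3B and 3 without 4B, 3A or 3C.

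Genes of the mitotic cycle and of budding were higher. Of 15 cyclin and inhibitor genes 6 rose and none fell (median 0.45; 3 rises without 3B). *CLB2*, a B-type cyclin of mitosis, had 53.2, 72.1 and 144 CPM at 4 µg/mL, against 15.0, 14.2 and 12.6 CPM at 2 µg/mL (log2 fold change 2.69 (SE 0.35, adjusted p = 0.0023)). The related *CLB1* had 65.9, 82.6 and 122 CPM at 4 µg/mL, against 30.0, 26.5 and 25.5 CPM at 2 µg/mL (log2 fold change 1.72 (SE 0.23, adjusted p = 0.0023)). *CLN1* and *CLN2*, cyclins of G1, rose less (log2 fold changes 1.11 and 1.30, adjusted p = 0.013 and 0.01), and both calls were lost without 3B (adjusted p = 0.063 and 0.051). *PCL2* (log2 fold change 1.33) and *PCL9* (1.13; adjusted p = 0.063 without 3B) were the other 2 that rose. *CLN3*, *CLB5*, *CLB6* and *SIC1* did not pass, with log2 fold changes of −0.38, 0.08, 0.45 and −0.05 and adjusted p of 0.13 or more.

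Of 13 septin and bud neck genes 7 rose and none fell (median 0.53), with 3 rises without 3B and 4 without 3C. *CDC3*, a septin, had 219, 246 and 459 CPM in libraries 4A, 4B and 4C, against 97.8, 101 and 87.6 CPM in 3A, 3B and 3C (log2 fold change 1.69 (SE 0.28, adjusted p = 0.0047)), and *HSL1*, a kinase at the septin ring, rose as well (log2 fold change 1.33, adjusted p = 0.01). The septins *CDC11* and *CDC12* did not pass (log2 fold changes 0.37 and 0.11, adjusted p = 0.2 and 0.68).

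Histone genes were higher in 8 of 10 cases, none lower (median 0.84). *HTA2*, for histone H2A, had 270.1, 331 and 394 CPM at 4 µg/mL, against 144, 90.4 and 104 CPM at 2 µg/mL (log2 fold change 1.56 (SE 0.22, adjusted p = 0.0032)). *HTB2*, for H2B, had 302, 270.3 and 357 CPM at 4 µg/mL, against 136, 128 and 89.4 CPM at 2 µg/mL (log2 fold change 1.39 (SE 0.20, adjusted p = 0.0033)). *HHF2*, 1 of the H4 genes, had 556, 611 and 993 CPM at 4 µg/mL, against 265, 256 and 235 CPM at 2 µg/mL (log2 fold change 1.51 (SE 0.26, adjusted p = 0.0052)), with reads that may be shared with *HHF1*. The counts were 3 without 3A or 3B and 5 without 4B or 3C. Genes of DNA replication hardly moved as a group: 1 of 29 rose and 1 fell (median 0.11). They were *RNR4*, of ribonucleotide reductase (log2 fold change 0.94, adjusted p = 0.029), and *CDC6*, which licenses origins (log2 fold change −0.56, adjusted p = 0.049). No gene passed without 4B or 3B, none fell without 4C or 3A, and 2 genes rose without 4C and 4 fell without 3C.

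All 137 cytosolic ribosomal protein genes had positive log2 fold changes (0.26 to 1.44, median 0.86), but only 25 passed the test (18.2%, against 14.2% of all genes). Their share of the counts was 6.96, 8.41 and 13.7% in 4A, 4B and 4C, against 6.48, 6.27 and 5.43% in 3A, 3B and 3C. Library 4C stood far above the other two of its dose, and 4A lay close to 3A. The number called was 0 without 3B, 1 without 3A, 2 without 3C, 8 without 4B and 111 without 4A, and the median was 0.38 without 4C and 1.09 without 4A. *RPL39*, for example, had 647, 720.2 and 1670.4 CPM at 4 µg/mL, against 445, 395 and 381 CPM at 2 µg/mL (log2 fold change 1.31 (SE 0.37, adjusted p = 0.029); log2 fold change 0.74 without 4C), and lost the call without 3A, 3B or 3C (adjusted p = 0.076, 0.1 and 0.08). Of the 137 genes 38 have a near-identical copy, and most exist in pairs.

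Of 140 ribosome biogenesis genes 21 rose and 2 fell (median 0.13), which for the rises was close to the 14.2% of all genes tested and for the falls 1.43%, against 16.9% of all. On this list 2 rose without 3A, 3 without 3B, 6 without 4B and 10 without 4C. *ESF1* and *UTP9*, of ribosomal RNA processing, rose in every fit (log2 fold changes 0.98 and 0.82, adjusted p = 0.0084 and 0.01). The falls were 0 without 4B, 3A or 3B, 1 without 4A or 4C and 5 without 3C. Of 26 subunits of RNA polymerases I and III 3 rose (11.5%, against 14.2% of all genes) and none fell (median 0.09), the rises being 1 without 3A or 3B, and *RET1*, of polymerase III, held in every fit (log2 fold change 1.05, adjusted p = 0.0087). Of 67 mitochondrial ribosomal proteins 8 rose (11.9%) and 4 fell (5.97%), both under the shares of all genes (median 0.18), with 3 to 7 rises and 2 or 3 falls when 1 library was left out, the lowest counts being without 3B for rises and without 4B, 4C, 3A or 3B for falls.

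Genes that mark the a mating type were higher at 4 µg/mL. Of 18 genes of the pheromone response and of a cells 11 rose and 3 fell (median 0.74). *BAR1*, the secreted protease that degrades α-factor, had 104, 183 and 305 CPM at 4 µg/mL, against 40.8, 31.1 and 31.3 CPM at 2 µg/mL (log2 fold change 2.52 (SE 0.36, adjusted p = 0.0031)). *STE2*, the α-factor receptor, had 356, 471 and 560.3 CPM in libraries 4A, 4B and 4C, against 121, 110.4 and 148 CPM in 3A, 3B and 3C (log2 fold change 1.87 (SE 0.22, adjusted p = 0.0017)). *MFA1*, which encodes a-factor, had 246, 303 and 371 CPM at 4 µg/mL, against 145, 149 and 104 CPM at 2 µg/mL (log2 fold change 1.21 (SE 0.21, adjusted p = 0.0058)). In all 3 the doses were apart. *MFA2* and *AGA2* were also called (log2 fold changes 0.84 and 0.67, adjusted p = 0.034 and 0.012), but not without 3A or 4B (adjusted p = 0.091 and 0.064 for *MFA2*, 0.056 and 0.056 for *AGA2*), and *MFA2* not without 4C, 3B or 3C either (0.056, 0.063 and 0.084). *FUS3* and *FIG2*, induced in mating, and *PRM1* fell by small amounts (log2 fold changes −0.47, −0.49 and −0.95). None of these 3 calls held without 4B or 3A (adjusted p from 0.05 to 0.14). The rises on the list were 6 without 4B, 5 without 3A and 7 without 3B, and the falls 0 without 4B or 3A, 1 without 4A or 3B and 2 without 4C.

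The promoters of *STE2* (chrVI:82330-82629, plus strand) and *BAR1* (chrIX:322092-322391, plus strand) are shown with the pheromone response element, which Ste12 binds, in capitals (TGAAACA, or TGTTTCA on the other strand).
STE2: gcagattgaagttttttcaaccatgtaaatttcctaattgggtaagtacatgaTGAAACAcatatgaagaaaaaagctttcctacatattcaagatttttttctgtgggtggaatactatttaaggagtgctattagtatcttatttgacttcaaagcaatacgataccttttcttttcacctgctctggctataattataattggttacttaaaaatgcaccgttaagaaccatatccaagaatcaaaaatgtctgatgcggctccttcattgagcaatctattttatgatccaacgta
BAR1: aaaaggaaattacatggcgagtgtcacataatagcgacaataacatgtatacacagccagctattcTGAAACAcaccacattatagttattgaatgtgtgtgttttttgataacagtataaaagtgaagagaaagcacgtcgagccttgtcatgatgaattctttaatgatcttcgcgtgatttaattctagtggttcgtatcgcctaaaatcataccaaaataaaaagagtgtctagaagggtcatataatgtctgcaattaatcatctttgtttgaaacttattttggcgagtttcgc
The matches lay 197 and 184 bases before the start codon. Promoters with these letters were 406 of 5647 (7.2%) over all tested genes, 72 of 792 (9.1%) among genes that rose, 58 of 981 (5.9%) among genes that fell and 11 of 18 (61.1%) on the mating list.

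Markers of other cell types took small shares of the counts, but not every one was near 0. Scaled over all 12 libraries, *MF(ALPHA)1* had 19.6, 16.1 and 28.9 CPM in 4A, 4B and 4C, against 88.2, 60.7 and 34.0 CPM in 3A, 3B and 3C. Of the 4 α-cell genes *STE3*, the a-factor receptor, rose, with 23.5, 24.0 and 41.2 CPM at 4 µg/mL, against 15.2, 12.3 and 16.1 CPM at 2 µg/mL (log2 fold change 1.02 (SE 0.27, adjusted p = 0.024)), and *MF(ALPHA)1* and *SAG1*, for α-factor and α-agglutinin, fell (log2 fold changes −1.51 and −0.65, adjusted p = 0.015 and 0.027). The 4 genes together took 0.0107, 0.00862 and 0.00999% of the counts at 4 µg/mL, against 0.0186, 0.0149 and 0.0149% at 2 µg/mL. *MF(ALPHA)2* was at 0 counts in 3A and was not called, although its log2 fold change, 2.98, was the largest of the list. The call of *STE3* was lost without 3A or 3B (adjusted p = 0.065 and 0.087), that of *MF(ALPHA)1* without 4B, 3A or 3B (0.051, 0.05 and 0.051) and that of *SAG1* without 4B, 3A or 3C (0.086, 0.073 and 0.062). Of 16 meiosis and sporulation genes 4 rose and 1 fell, and the list took 0.0203 to 0.0244% of the counts at 4 µg/mL, against 0.0215 to 0.0239% at 2 µg/mL. *IME2*, a kinase of early meiosis, rose (log2 fold change 1.25), and *REC8*, the meiotic cohesin, fell (−1.59), both in every fit, and 1 gene rose without 3B.

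Of 37 autophagy genes 19 fell and 1 rose (median −0.54). *ATG15*, the vacuolar lipase that opens autophagic bodies, had 68.3, 47.1 and 20.9 CPM at 4 µg/mL, against 167, 172 and 134 CPM at 2 µg/mL (log2 fold change −1.79 (SE 0.36, adjusted p = 0.0088)). *ATG8*, the ubiquitin-like protein of autophagic membranes, had 72.7, 74.4 and 60.1 CPM at 4 µg/mL, against 98.4, 124 and 123 CPM at 2 µg/mL (log2 fold change −0.73 (SE 0.15, adjusted p = 0.0098)). *ATG36*, the receptor for the autophagy of peroxisomes, fell more (log2 fold change −2.03, adjusted p = 0.011). *ATG5*, which helps to attach *ATG8* to membranes, was the 1 that rose, with 99.6, 112 and 133 CPM in libraries 4A, 4B and 4C, against 48.1, 39.0 and 53.8 CPM in 3A, 3B and 3C (log2 fold change 1.29 (SE 0.17, adjusted p = 0.0023)). The falls were 12 without 4B or 3A and 11 without 3B. Peroxins, which build peroxisomes, showed the like: 16 of 29 fell and none rose (median −0.51), with 9 falls without 3A and 7 without 3B. *PEX18*, which works with the import receptor Pex7, had 15.9, 10.1 and 9.65 CPM at 4 µg/mL, against 40.8, 46.3 and 77.2 CPM at 2 µg/mL (log2 fold change −2.20 (SE 0.31, adjusted p = 0.0029)). Its relative *PEX21* had 105, 71.3 and 47.4 CPM at 4 µg/mL, against 225, 256 and 206 CPM at 2 µg/mL (log2 fold change −1.61 (SE 0.27, adjusted p = 0.0049)).

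Subunits of the vacuolar proton ATPase all had positive values, and 7 of 16 rose (median 0.48), 3 without 4B and 2 without 3A or 3B. *VMA5* had 260.0, 309 and 301 CPM at 4 µg/mL, against 158, 154 and 149.9 CPM at 2 µg/mL (log2 fold change 0.91 (SE 0.14, adjusted p = 0.0041)). Of 34 proteasome genes 11 rose and 1 fell (median 0.39), but 2 rose without 4B, 1 without 3A and none without 3B, with 7 without 4C or 3C. *RPN9*, of the regulatory particle, had a log2 fold change of 1.09 (adjusted p = 0.013, and 0.055 without 3B). The 1 that fell was *RPN14*, an assembly factor (log2 fold change −0.48, adjusted p = 0.037), and its call was lost with any library but 4A left out (adjusted p from 0.053 to 0.11).

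The list of 10 vacuolar protease genes also held *YPS1*, a yapsin and thus a surface protease. On it *YPS1* and *PEP4* rose and none fell. *YPS1* had 538, 650.3 and 849 CPM at 4 µg/mL, against 248, 149 and 127 CPM at 2 µg/mL (log2 fold change 1.96 (SE 0.30, adjusted p = 0.0038)). *PEP4*, proteinase A, had a log2 fold change of 0.86 (adjusted p = 0.028) and lost the call without 4B, 3A, 3B or 3C (adjusted p = 0.084, 0.11, 0.1 and 0.055), while *PRB1* and *PRC1* did not pass (log2 fold changes 0.12 and 0.01).

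Stress genes did not move one way. Of 21 general stress genes 4 rose and 4 fell (median 0.06), with 2 rises without 4B, 3A or 3B. *HSP30*, a heat shock protein of the plasma membrane, had 73.4, 74.4 and 33.6 CPM at 4 µg/mL, against 233, 198 and 486 CPM at 2 µg/mL (log2 fold change −2.33 (SE 0.41, adjusted p = 0.0059)). *CTT1*, cytosolic catalase, had 177, 153 and 166 CPM in libraries 4A, 4B and 4C, against 402, 337 and 680.5 CPM in 3A, 3B and 3C (log2 fold change −1.52 (SE 0.27, adjusted p = 0.006)). *PNC1*, a nicotinamidase, rose (log2 fold change 1.03, adjusted p = 0.0092). *HSP12*, *HSP26* and *DDR2* overlapped between the doses and were not called (log2 fold changes 0.65, 0.06 and 0.11). Of 20 genes for trehalose and glycogen 5 rose and 7 fell (median −0.08; 4 falls without 4B or 3B). *GPH1*, glycogen phosphorylase, and *GSY2*, glycogen synthase, rose (log2 fold changes 1.41 and 0.86), and *GLG2*, which primes glycogen, *GLC3*, the branching enzyme, and *ATH1*, acid trehalase, fell (−1.91, −1.33 and −1.25), all in every fit with 1 library left out.

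Of 22 genes for oxidant defence 8 rose and 5 fell (median 0.26). *AHP1*, a peroxiredoxin, had 2516, 3219 and 4572 CPM at 4 µg/mL, against 1138, 843 and 1066 CPM at 2 µg/mL (log2 fold change 1.76 (SE 0.33, adjusted p = 0.0071)). *CTA1*, the peroxisomal catalase, had 52.1, 35.0 and 35.4 CPM at 4 µg/mL, against 221, 331 and 587 CPM at 2 µg/mL (log2 fold change −3.22 (SE 0.37, adjusted p = 0.0016)). *TSA1*, another peroxiredoxin, rose (log2 fold change 1.61, adjusted p = 0.037), mostly through 4C: its value was 0.80 without 4C, and its call was lost without 3A, 3B or 3C (adjusted p = 0.1, 0.12 and 0.093). The rises were 4 without 4B, 3 without 3A or 3B and 5 without 3C, and the falls 3 without 4B, 3A or 3B. Of 25 chaperones 3 rose (12%) and 1 fell (4%), both under the shares of all genes (median 0.19). *SSA3*, a heat-inducible Hsp70, had 177, 159 and 142 CPM at 4 µg/mL, against 518, 706 and 2170.0 CPM at 2 µg/mL (log2 fold change −2.83 (SE 0.52, adjusted p = 0.0067)). *KAR2*, the Hsp70 of the endoplasmic reticulum, had 608, 750.3 and 2903 CPM in libraries 4A, 4B and 4C, against 506, 491 and 431 CPM in 3A, 3B and 3C, so that 4C alone was high, and it was not called (log2 fold change 1.58, adjusted p = 0.059). None of the 3 chaperone rises held without 4B, 3A or 3B, and 5 genes passed without 4A.

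Of 23 sphingolipid genes 9 rose and 1 fell (median 0.48). *ELO3*, an elongase of very long fatty acids, had 239, 273 and 569 CPM at 4 µg/mL, against 84.0, 71.4 and 99.3 CPM at 2 µg/mL (log2 fold change 2.08 (SE 0.33, adjusted p = 0.0042)). *ELO2*, another elongase, had 108, 116 and 159 CPM at 4 µg/mL, against 49.96, 42.1 and 49.4 CPM at 2 µg/mL (log2 fold change 1.44 (SE 0.17, adjusted p = 0.0019)). The rises were 6 without 4B or 4C, 5 without 3A and 4 without 3B, and the fall, of the ceramidase *YPC1* (log2 fold change −0.38, adjusted p = 0.042), was lost with any library but 4C left out (adjusted p = 0.14, 0.13, 0.13, 0.098 and 0.064). Of 30 sterol genes 7 rose and 3 fell (median 0.16), with 4 rises without 4B, 3A or 3C and 3 without 3B, and 2 falls without 4B, 3B or 3C. *ERG4*, the last step to ergosterol, had 323, 286 and 598 CPM at 4 µg/mL, against 158, 129 and 104 CPM at 2 µg/mL (log2 fold change 1.63 (SE 0.30, adjusted p = 0.007)). *ECM22*, an activator of sterol genes, and *ARE1*, which esterifies sterols, fell (log2 fold changes −0.88 and −0.87). *ERG11* and *ERG3* were not called (log2 fold changes 0.30 and 0.26).

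Of 15 genes of the SUR7 family and the eisosome, furrows of the plasma membrane, 4 rose and 2 fell, although the median was −0.26. The 4 rises were in the family of 4-span membrane proteins and not in the eisosome core. *INA1* had 22.8, 55.3 and 60.8 CPM at 4 µg/mL, against 4.01, 4.26 and 3.43 CPM at 2 µg/mL (log2 fold change 3.57 (SE 0.39, adjusted p = 0.0014)). *PUN1* had 486, 612 and 638 CPM in libraries 4A, 4B and 4C, against 147, 105 and 111 CPM in 3A, 3B and 3C (log2 fold change 2.25 (SE 0.21, adjusted p = 0.001)), with tight groups. *SUR7* rose (log2 fold change 1.42, adjusted p = 0.012), and *PIL1* and *LSP1*, the core proteins of the furrows, did not pass (0.52 and −0.26, adjusted p = 0.14 and 0.4). The falls were 1 without 4B or 3A. Of 15 polyamine transport genes 5 rose and 4 fell (median 0.22). *TPO2*, an exporter with the near-identical copy *TPO3*, and *QDR2* rose in every fit (log2 fold changes 1.78 and 1.26). The rises were 3 without 4B, 4C or 3A and 2 without 3B, and the falls 0 without 4B or 3B, 1 without 3A and 2 without 4A or 4C.

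*ROX3*, a subunit of the Mediator complex that links activators to RNA polymerase II, had 543, 503 and 507 CPM at 4 µg/mL, against 329, 318 and 317 CPM at 2 µg/mL. The libraries of a dose lay close together and the doses did not overlap (log2 fold change 0.69 (SE 0.17, adjusted p = 0.017)), but the call was lost without 4B, 3A or 3B (adjusted p = 0.061, 0.071 and 0.076). *HRP1*, which binds messenger RNA in 3' end processing, had 446, 411 and 470.5 CPM at 4 µg/mL, against 319.6, 376 and 315 CPM at 2 µg/mL and did not pass (log2 fold change 0.39, adjusted p = 0.11). Over the list of Mediator subunits and *HRP1*, 4 of 26 rose (15.4%, against 14.2% of all genes). On the same list 7 fell (26.9%, against 16.9% of all genes), and the median was −0.07. *SRB7* rose and *SSN2* fell in every fit (log2 fold changes 0.80 and −0.68, adjusted p = 0.0065 and 0.0053). The rises were 1 without 4B or 3B and 2 without 3A, and the falls 2 without 4B and 1 without 3A or 3B.

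Over all promoters, the stress response element AGGGG, bound by Msn2 and Msn4, was in 30.5% of those of genes that fell, in 18.8% of genes that rose and in 22.0% of all tested. The post-diauxic shift element AGGGAT was in 11.6, 7.2 and 9.3% of the same 3 sets, and the Gcn4 core TGACTC in 11.7, 5.3 and 8.3%. The element AAAAATTT, known from ribosome biogenesis promoters, went the other way, with 8.6% of genes that fell, 18.1% of genes that rose and 14.7% of all. The other element of those promoters, the PAC core GATGAG, did not: it was in 17.3% of genes that fell, 17.9% of genes that rose and 19.7% of all. Each was counted on both strands, and AGGGG and AGGGAT share their first letters. These shares describe the windows and were not tested.

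The last doubling was also set against the doubling before it, from 1 to 2 µg/mL, in a fit to all 12 libraries. In that fit 0 genes were called between 2 and 1 µg/mL by edgeR (190 of 5903 at an unadjusted p under 0.05, smallest adjusted p 0.995), and DESeq2 called 1 (*PHM6*, a gene of phosphate metabolism, named after its value was seen). The log2 change of the last doubling differed from that of the earlier one for 83 genes (1.41% of 5903), positive for 11 and negative for 72. All 72 had lower values at 4 than at 2 µg/mL, and 46 of them had higher values at 2 than at 1 µg/mL. All 11 were higher at 4 than at 2 µg/mL and lower at 2 than at 1 µg/mL by the fitted values. The 2 µg/mL libraries enter the 2 doublings with opposite signs. At 1 µg/mL library 2A stood apart from 2B and 2C: its TMM factor in this fit was 0.846, against 1.02 in both. That of 4C was lower still, at 0.808. *ROX3* had 885, 424 and 373 CPM in 2A, 2B and 2C, and *MNC1* 161, 8.79 and 4.68 CPM. The comparison of 2 with 1 µg/mL was not tested without 2A.

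*HXT3* had the largest positive difference, 4.23 on the log2 scale (SE 0.63, adjusted p = 0.0067), followed by *GNP1* (4.05, adjusted p = 0.028) and *INA1* (3.80, adjusted p = 0.024). *GNP1* averaged 179 CPM at 1 µg/mL, 57.2 CPM at 2 µg/mL and 307 CPM at 4 µg/mL in this fit, so that its 2 µg/mL libraries were the low ones. *HXT3* averaged 28.3, 20.3 and 276 CPM and *INA1* 4.66, 3.96 and 47.2 CPM at 1, 2 and 4 µg/mL, close together at 1 and 2 µg/mL and far higher at 4 µg/mL. *STE2* and *COX5B* were also among the 11 (2.10 and 1.62).

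The largest negative difference was that of *DAL4* (−8.71, adjusted p = 0.03), which averaged 3.33 CPM at 1 µg/mL, 69.5 CPM at 2 µg/mL and 3.49 CPM at 4 µg/mL and rested on the high library 3A. *UGA4* (−7.15, adjusted p = 0.012) averaged 66.1, 443 and 20.7 CPM and *DAL80* (−6.61) 37.98, 239 and 15.1 CPM at the same 3 doses. The means of both at 2 µg/mL were the highest of the 3, but 3C overlapped the 1 µg/mL libraries: in this fit *DAL80* had 485.5, 188.7 and 41.5 CPM in 3A, 3B and 3C, against 9.56, 49.0 and 55.4 CPM at 1 µg/mL, and *UGA4* 1013, 234 and 80.3 CPM in 3A, 3B and 3C, against 51.4, 95.9 and 51.1 CPM at 1 µg/mL. *FDH1* (−7.62, adjusted p = 0.0021) averaged 114, 132 and 0.772 CPM, and *ADH2* (−6.08, adjusted p = 0.0015) had 2875, 1812 and 16.9 CPM. Both were high at 1 and 2 µg/mL and low at 4 µg/mL. The number of genes called was 32 without 4B, 43 without 3A, 36 without 3B, 218 without 4A and 131 without 3C. Of the 1 µg/mL libraries, leaving out 2A gave 118, leaving out 2B gave 58 and leaving out 2C gave 388.

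**Figure D5:**
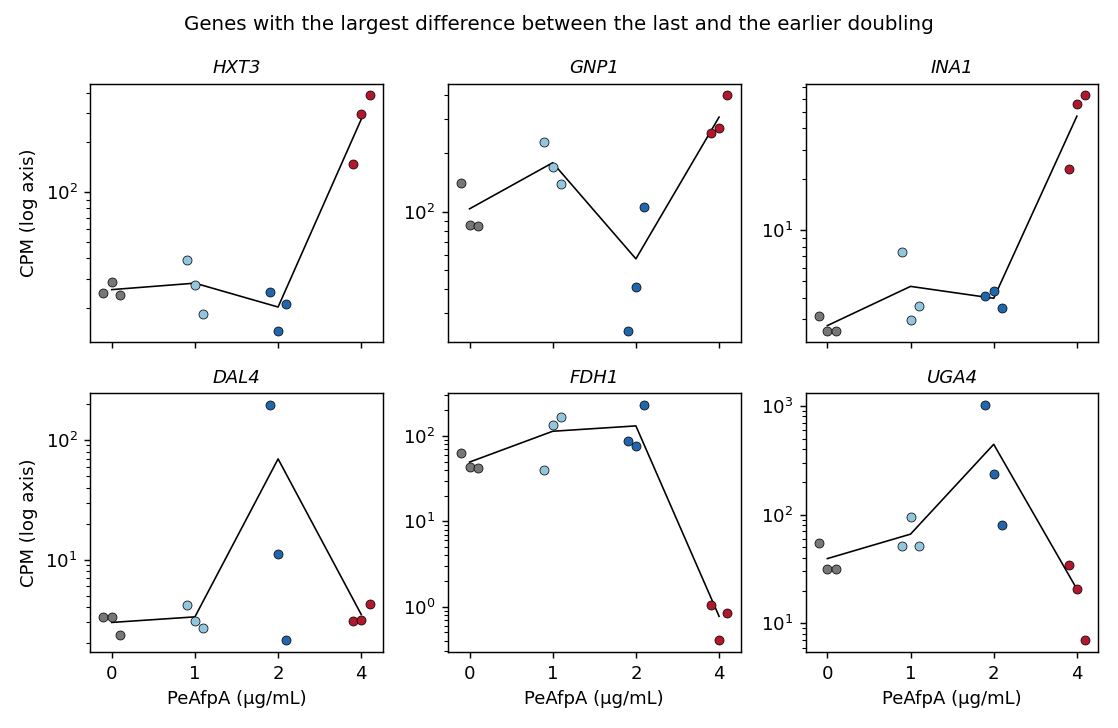
CPM (log axis) of 6 genes at 0, 1, 2 and 4 µg/mL PeAfpA, each library a point and the line joining the group means, for the 3 largest positive (top) and negative (bottom) differences between the last and the earlier doubling. *HXT3* and *INA1* are level up to 2 µg/mL and high at 4 µg/mL, *FDH1* is low at 4 µg/mL alone, and *DAL4* is high in 1 library of 2 µg/mL (3A).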

How the data were processed

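Total RNA of 20 h cultures was sequenced as single-end libraries (TruSeq RNA kit). The authors deposited raw read counts per gene for 12 libraries in 1 table. Per the submitters' notes and the study's methods, reads were trimmed with Trimmomatic 0.39, aligned to build R64 with Bowtie2 2.3.2 and counted with HTSeq 0.9.0; its strand, overlap and mapping quality settings are not given in the sources used here. Without strand, overlapping and antisense genes cannot be told apart. Of 6600 features 5917 matched the RefSeq annotation of R64 by ID, and 683, with 0.172 to 0.323% of the counts, did not. The study describes the 3 cultures of a dose as separate flasks of 1 strain, so n = 3 at each dose and the p-values measure the spread between flasks.

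Counts of the 6 libraries were kept where the mean was at least 1 TPM (1 CPM for 230 features of unknown length), scaled by TMM and tested with edgeR 4.0.16 (glmQLFit and glmQLFTest, 4 minus 2 µg/mL, two-sided, R 4.3.3). Genes were called where the p, adjusted by the method of Benjamini and Hochberg over the 5877, was under 0.05. Printed CPM are TMM-normalized shares of the counts, computed here. Log2 fold changes are given with their standard errors (SE), principal components use log2 CPM with a prior count of 2, and the doublings were compared in an edgeR fit to 12 libraries. The tests were run on simulated counts with far fewer genes changed than were called here and no library standing apart. This does not check them under the spread seen in these libraries. Total counts and CPM carry counting error, which is small beside the spread between flasks: squared differences between libraries of 1 dose were 25.2 to 167 times the counting error.

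Alternatives were edgeR and DESeq2 1.42.0 over 12 libraries, DESeq2 over 6, limma 3.58.1 (voom, with and without quality weights), other filters (1 count, filterByExpr), RLE and library size scaling, a replicate block and each library left out; leaving out 4C and 3C together was chosen after seeing the data. Genes named are the 12 largest rises and falls without overlap of doses and with a mean of at least 50 counts, the 5 lowest adjusted p, the 3 largest differences of the doublings in each direction, and from each of 47 gene lists up to 3 called rises and falls, the 2 largest changes not called and the 3 most abundant genes, with all members of lists of 12 or fewer, of the carbon regulators, cyclins and CWI genes, *ROX3* and *HRP1*. The comparison, its lists and its named genes were chosen with earlier results of these data known. Near-identical copies align over at least 100 bases at 95% identity. Promoters were read from the RefSeq genome (R64). No column of the table was left unmapped. Python 3.11.15 and matplotlib 3.10.9 made tables and figures.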

Additional observations from a re-analysis of the deposited data

Results flagged for a closer look

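The effect of the last doubling of the dose (4 over 2 µg/mL) differed from that of the doubling before it (2 over 1 µg/mL) for 83 of 5903 genes, tested as a contrast of the 2 changes in 1 edgeR fit to 12 libraries. On the log2 scale the differences furthest above 0 were those of *HXT3* (4.23), *GNP1* (4.05) and *INA1* (3.80), and those furthest below 0 were those of *DAL4* (−8.71), *FDH1* (−7.62) and *UGA4* (−7.15). The 3 libraries of *DAL4* at 2 µg/mL were 195, 11.1 and 2.12 CPM, so that its difference rested on 3A, while those of *FDH1* and *HXT3* lay closer together. The share of genes called in this contrast was 1.41%.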

How the results depend on the processing

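The number of DEGs moved with the test and the libraries. No DEG shared with any alternative changed sign. This was largely fixed beforehand, because the doses did not overlap for 1823 of the 1831 DEGs. With sample quality weights (limma-voom) 3296 genes passed, 1605 higher and 1691 lower, with weights of 0.222 for 4C and 0.330 for 3C, against 1.07 to 4.37 for the rest. Scaled by library size alone, 534 were higher. Leaving out 4C and 3C together, which was chosen after seeing the data, gave 1271 higher. With 1 library left out at a time, the DEGs ranged from 829 to 1947, those higher from 301 to 941, those lower from 528 to 1006 and those of at least 2-fold from 553 to 1066. The difference between the doublings was called for 465 genes by DESeq2, 36 with a replicate block, and 32 to 388 with 1 library left out. The first component held 77.4% of the variance after a variance stabilizing transformation and 82.0% over the 500 most variable genes.

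No pairing of the libraries by the replicate number of the labels was seen. Deviations from the group means of libraries with the same number correlated at −0.18, −0.02 and −0.18, and 4A correlated best with 3C (0.23). With 3 libraries at each dose, and 4C and 3C apart from the rest, these values cannot decide whether the numbers pair them. With the replicate block 1341 genes passed. Of the 255 named genes called, 151 were called in every alternative, 90 lost the call without 3B, 74 without 3A and 65 without 4B, and none reversed. The medians of 13 of 47 lists changed sign in some setting, the largest of them being 0.26 in absolute size. With 3 flasks at each dose, small changes such as those of *PKC1* or *FUS3* lay at the limit of what could be called, and genes not called are not shown to be equal. The cause of these differences between settings was not tested.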
